A study of Oryctolagus cuniculus with 12 samples.

Results

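The colony stimulating factors are cytokines that maintain and recruit cells of the myeloid lineage. The RNA of 6 genes was examined in rabbit conjunctiva after glaucoma filtration surgery. The ligands were CSF1, CSF2, CSF3, and IL34, and the receptor chains were CSF2RA and CSF2RB. They were chosen by name, and each matched 1 of the 20566 genes in the deposited table. Trabeculectomy with mitomycin C, a DNA crosslinking agent used to limit scarring, was performed on the right eye of female Japanese white rabbits, which were 12 to 14 weeks of age according to the methods. Bleb conjunctiva formed the groups TL3h, TL3d, and TL14d, sampled 3 hours, 3 days, or 14 days after the operation, and conjunctiva of left eyes without operation formed the control group. Each of the 4 groups held 3 libraries. The control eyes belonged to rabbits that had been operated on in the other eye, and neither the time of control sampling nor the match of control to operated eyes was given. The operation as described in the methods also included a betamethasone injection, so surgery, mitomycin C, and steroid cannot be told apart in the operated groups. The paper took its trabeculectomy sequence data from earlier work. The age and the injection given in its methods may therefore differ for these libraries.

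CSF1 and IL34 both signal through CSF1R, which keeps monocytes, macrophages, and Langerhans cells alive. CSF3 drives the production and survival of neutrophils through CSF3R. CSF2 acts on granulocytes, macrophages, and dendritic cells through the ligand-binding chain CSF2RA and the signalling chain CSF2RB, which also serves the receptors for IL-3 and IL-5. In surface tissues such as the conjunctiva the ligands are known products of epithelium, fibroblasts, endothelium, and leukocytes, whereas the receptors are carried mainly by myeloid cells.

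Total estimated counts ranged from 27111348 to 38591425 per library, and levels are given as CPM (counts divided by the library total and scaled to a common total), adjusted by the trimmed mean of M values (TMM). The scaling factors were 0.768 to 0.783 in TL3h and 1.03 to 1.13 in the other groups. Without them the median over all genes tested of the log2 fold change at 3 hours moved from 0.02 to -0.47, and the calls changed from 3435 higher and 3298 lower to 1889 higher and 5674 lower. A count of 0 allows up to 3 counts with 95% confidence, which corresponded to a floor of 0.0712 to 0.124 CPM per library, for counting error only. The summed level of 4 conjunctival epithelial markers (KRT4, KRT5, PAX6, and CDH1) was 3770 to 8132 CPM in control, 3698 to 6128 in TL3h, 5980 to 15923 in TL3d, and 8259 to 12347 in TL14d, with PAX6 lower at 3 hours and KRT5 higher at 3 days. The sum of 3 skeletal muscle markers was 249 CPM in control replicate 2 and 288 CPM in TL3d replicate 3, against at most 6.42 CPM in the other libraries. Myeloid markers moved with the groups, whereas the sum of 6 T cell markers overlapped between all groups (6.84 to 23.5 CPM), with CD3D lower at 3 hours, and that of 3 eosinophil markers was at most 0.450 CPM. The sum of 7 neutrophil markers was 3.30 to 86.3 CPM in control, 1048 to 2809 in TL3h, 120 to 697 in TL3d, and 2.76 to 110 in TL14d, with MPO at 3 counts or fewer in every control, TL3h, and TL14d library. The sum of 8 monocyte and macrophage markers was 89.8 to 672, 705 to 1060, 1188 to 1816, and 123 to 392.5 CPM in the same order. All 6 neutrophil markers tested rose at 3 hours and 1 at 3 days, against 2 and 4 of the 8 monocyte and macrophage markers, beside 23.2% and 10.6% of all genes. All 4 tested markers of dendritic and Langerhans cells (ITGAX, CD207, FLT3, and XCR1) rose at 3 days, and the sum of the 6 in the table was 3.49 to 8.58 CPM in control, 8.74 to 13.6 in TL3h, and 39.4 to 58.0 in TL3d. The sum of 4 endothelial markers was 62.2 to 263 CPM in control, 599 to 1205 in TL3h, 286 to 529 in TL3d, and 86.6 to 272 in TL14d. At 3 hours 2 of them rose (PECAM1 and CDH5), and at 3 days none passed the threshold. Fewer cells of a type and less RNA per cell cannot be told apart in these bulk libraries, and the part of leukocyte, endothelial, epithelial, or muscle content in the results below was not tested.

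Compared with control, 4 of the 6 genes rose at 3 hours (CSF3, CSF2RB, CSF2RA, and CSF1), and 2 were still higher at 3 days (CSF2RB and CSF2RA). At 14 days none of the 6 passed the threshold, a Benjamini-Hochberg adjusted p (q) of 0.05 in edgeR's quasi-likelihood test. The background was large. Of 14835 genes tested, 45.4% were called at 3 hours (23.2% higher), 17.6% at 3 days (10.6% higher), and 0% at 14 days. The 4 of 6 genes at 3 hours made up 66.7%, and the 2 of 6 at 3 days made up 33.3%. The median log2 fold change of the 5 genes other than CSF2 was 3.41 at 3 hours, 2.80 at 3 days, and 0.46 at 14 days, against 0.02, -0.00, and 0.02 for all genes tested. At 14 days 1538 genes had an unadjusted p under 0.05, and DESeq2 called 367 genes. CSF2 was among these, on the strength of 1 TL14d library, and is not counted as changed.

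**Figure D1:**
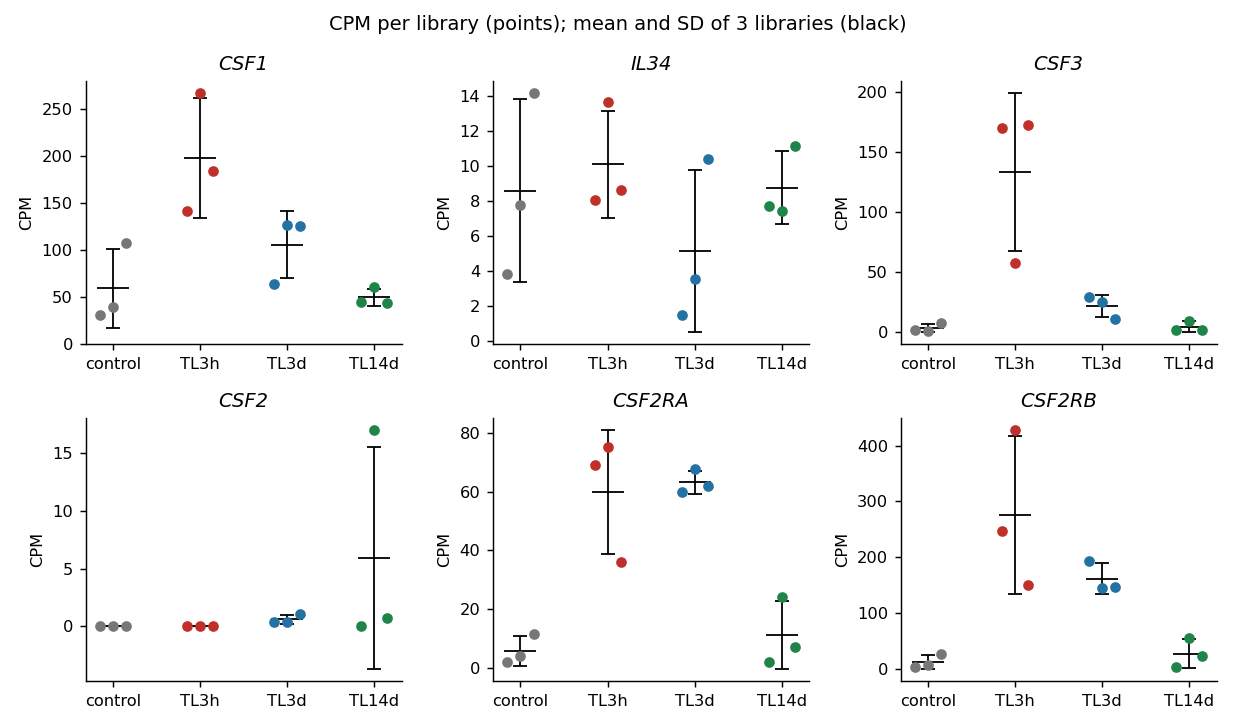
Levels of CSF1, CSF2, CSF3, IL34, CSF2RA, and CSF2RB in each of the 12 libraries, in CPM, by group, with points for libraries and bars for the mean ± SD of 3 libraries. CSF3, CSF2RA, and CSF2RB lay above all control libraries at 3 hours and 3 days, IL34 overlapped control at each time, and the high CSF2 mean at 14 days came from 1 library.

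CSF3, the granulocyte colony stimulating factor, showed the largest fold change of the 6 genes at 3 hours. The gene (ID 100356652) is annotated on the plus strand of chromosome 19 in the OryCun2.0 build, between 41226682 and 41230857. Its levels were 1.16, 1.08, and 7.02 CPM in the control libraries, 170.3, 57.6, and 173 CPM in TL3h, 28.7, 24.9, and 11.1 CPM in TL3d, and 1.68, 9.45, and 1.56 CPM in TL14d. Each TL3h library was above each TL3d library, and each TL3d library was above each control library, whereas TL14d overlapped control. The mean was 3.09 ± 3.41 CPM (SD, n = 3) in control and 134 ± 65.8 CPM (SD, n = 3) in TL3h, a 43.2-fold rise (log2 fold change 5.43, SE 1.05, q = 0.00222). This call was kept in all 19 alternative analyses, with q from 3.89e-09 to 0.0113, but its size rested on control replicate 3, without which the change was 114-fold. At 3 days the mean was 21.6 ± 9.23 CPM (SD, n = 3), and all 3 libraries exceeded control, but the difference missed the threshold (log2 fold change 2.80, SE 0.94, q = 0.0635). It passed with DESeq2 (q = 0.00699), without control replicate 3 (19.0-fold in place of 6.98-fold, q = 0.0273), or without TL14d replicate 2 (q = 0.0357). It also passed without control replicate 3 and TL14d replicate 1 together (q = 0.0130), and the highest q over the alternatives was 0.169. At 14 days the mean was 4.23 ± 4.52 CPM (SD, n = 3), and the log2 fold change against control was 0.46 (SE 0.89, q = 0.879).

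CSF1, the macrophage colony stimulating factor, was the most abundant ligand per transcript length (FPKM) in control tissue. The gene (ID 100338577) occupies bases 54246013 to 54264654 of chromosome 13, minus strand. Its levels were 31.1, 40.1, and 108 CPM in control, 142, 268, and 185 CPM in TL3h, 64.5, 127, and 126 CPM in TL3d, and 45.4, 60.6, and 43.4 CPM in TL14d. Only the TL3h libraries all lay above the control libraries, and control replicate 3 exceeded TL3d replicate 1 and every TL14d library. The mean rose from 59.8 ± 42.1 CPM (SD, n = 3) to 198 ± 63.9 CPM (SD, n = 3) at 3 hours, a 3.32-fold change (log2 fold change 1.73, SE 0.47, q = 0.0125). It was 5.37-fold without control replicate 3. Without control replicate 2 this q was 0.0521, and over all alternatives it ranged from 0.00109 to 0.0521. At 3 days (106 ± 35.8 CPM, SD, n = 3) the log2 fold change was 0.82 (SE 0.46, q = 0.218), and at 14 days (49.8 ± 9.44 CPM, SD, n = 3) it was -0.26 (SE 0.46, q = 0.865). Control replicate 3 decided the call at 3 days, since without it the fold was 2.94 in place of 1.77 and q was 0.0288, in a range of 0.0206 to 0.483 over the alternatives. Without the same library the log2 fold change at 14 days turned to 0.47.

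IL34, the second ligand of CSF1R, did not pass the threshold in any comparison. The gene (ID 100347811) lies on chromosome 5 from 28855632 to 28917120 on the minus strand and overlaps MTSS1L on the plus strand by 236 bases. The IL34 counts were fractions in all 12 libraries. The library kit keeps strand, but whether the counting used it was not given, so reads of the overlap cannot be assigned with certainty. IL34 levels were 3.82, 7.75, and 14.1 CPM in control, 8.07, 13.6, and 8.60 CPM in TL3h, 1.499, 3.57, and 10.4 CPM in TL3d, and 7.70, 7.44, and 11.1 CPM in TL14d. All groups overlapped, and TL3d held both the lowest library and a 6.91-fold spread between its highest and lowest library. The group means were 8.57 ± 5.21, 10.1 ± 3.06, 5.14 ± 4.63, and 8.76 ± 2.06 CPM (SD, n = 3) in the order control, TL3h, TL3d, and TL14d. The log2 fold change against control was 0.24 (SE 0.64, q = 0.794) at 3 hours, -0.74 (SE 0.64, q = 0.433) at 3 days, and 0.03 (SE 0.64, q = 0.990) at 14 days. Without TL3d replicate 3 the value at 3 days was -1.76. The sign at 3 hours depended on the scaling, since it was -0.24 with library size only. MTSS1L, the overlapping gene, had 34.9 ± 5.08 CPM (SD, n = 3) in control and 21.8 ± 3.49 CPM (SD, n = 3) in TL3h and fell at 3 hours (log2 fold change -0.68, SE 0.18, q = 0.0104).

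**Figure D2:**
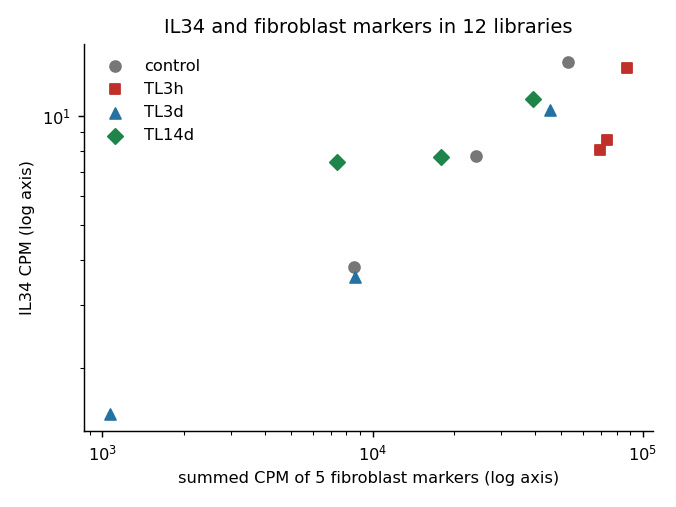
IL34 level in CPM against the summed level of 5 fibroblast markers in CPM (log axes), with 1 point per library colored by group. TL3d replicate 1 was lowest on both axes (1.499 and 1066 CPM), and the TL3h libraries held the highest marker sums (69378 to 87412 CPM).

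The IL34 level varied among libraries together with 5 fibroblast markers, which include collagen and decorin genes. In TL3d replicate 1, where IL34 was lowest of all libraries, the marker sum was also lowest at 1066 CPM. Within each of the 4 groups the 3 libraries had the same order in IL34 level and in marker sum. In TL3d the sums were 1066, 8613, and 45235 CPM beside IL34 levels of 1.499, 3.57, and 10.4 CPM. None of the 5 fibroblast markers passed the threshold against control at any time, and the part of fibroblast content in the IL34 level was not tested.

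CSF2, the granulocyte-macrophage colony stimulating factor, was at or near 0 in control and at 3 hours. The gene (ID 100328720) lies on chromosome 3 from 15144158 to 15146030 on the plus strand, and its model is only 435 bases long, against 1723 to 3953 bases for the other 5 genes. Reads outside this model would not have been counted. The counts were 0, 2, and 0 in control, 0 in each TL3h library, 16, 12, and 36 in TL3d, and 0, 627, and 23 in TL14d. These correspond to 0, 0.05003, and 0 CPM in control, 0.400, 0.370, and 1.02 CPM in TL3d, and 0, 17.0, and 0.749 CPM in TL14d. The TL3d libraries all lay above the control and TL3h libraries, whereas TL14d ranged from 0 in replicate 1 to the highest value of the series in replicate 2. The mean of 0.598 ± 0.370 CPM (SD, n = 3) at 3 days was 8.10 times the control floor (5.21 times without TL3d replicate 3). The difference did not pass the threshold (q = 0.161, range over the alternatives 0.0288 to 0.324). The TL14d mean of 5.93 ± 9.63 CPM (SD, n = 3) was 80.3 times the control floor, or 5.07 times without replicate 2. These values bound the control level only, since TL14d replicate 1 had a count of 0. Its q was 0.364, and it was 0.0354 without TL14d replicate 1, 0.0102 with DESeq2, and 0.978 without TL14d replicate 2. No fold change is given for TL3h, since both groups were at the floor (q = 0.663).

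CSF2RA, the ligand-binding chain of the CSF2 receptor, rose at 3 hours and was still higher at 3 days. The gene (ID 100346676) is on unplaced sequence, from 341787368 to 341794094 of the joined pieces, on the plus strand. Its levels were 1.76, 3.88, and 11.3 CPM in control, 68.9, 75.1, and 35.9 CPM in TL3h, 60.0, 67.6, and 61.8 CPM in TL3d, and 1.95, 24.02, and 7.16 CPM in TL14d. All 6 libraries of TL3h and TL3d lay above all control and TL14d libraries, and TL14d overlapped control. Against a control mean of 5.66 ± 5.03 CPM (SD, n = 3), the mean was 60.0 ± 21.1 CPM (SD, n = 3) at 3 hours, a 10.6-fold rise (log2 fold change 3.41, SE 0.88, q = 0.0100). It was 63.1 ± 3.99 CPM (SD, n = 3) at 3 days, an 11.2-fold rise (log2 fold change 3.48, SE 0.88, q = 0.0277). Without control replicate 3 the folds were 20.6 at 3 hours and 22.2 at 3 days. The call at 3 hours was kept in all 19 alternative analyses (q from 9.70e-05 to 0.0436). At 3 days it was lost when control replicate 1 (q = 0.0866), control replicate 2 (q = 0.0960), TL3d replicate 1 (q = 0.0701), or TL3d replicate 2 (q = 0.0749) was left out, with a lowest q of 0.000196 over the alternatives. At 14 days the mean was 11.04 ± 11.5 CPM (SD, n = 3), and the log2 fold change was 0.97 (SE 0.82, q = 0.705), which turned to -0.31 without TL14d replicate 2.

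CSF2RB, the signalling chain shared with the IL-3 and IL-5 receptors, rose further than CSF2RA at 3 hours in fitted fold change, but the difference between both genes was not tested. The gene (ID 100349996) occupies bases 84975663 to 85000132 of chromosome 4, minus strand. Its levels were 3.25, 6.13, and 26.0 CPM in control, 247, 429, and 150.3 CPM in TL3h, 193, 145, and 146 CPM in TL3d, and 3.46, 54.9, and 22.6 CPM in TL14d. The lowest library of TL3h and TL3d was above the highest of control and TL14d. The mean rose from 11.8 ± 12.4 CPM (SD, n = 3) to 275 ± 141 CPM (SD, n = 3) at 3 hours, a 23.3-fold change (log2 fold change 4.54, SE 1.04, q = 0.00543). At 3 days it was 161 ± 27.5 CPM (SD, n = 3), 13.7-fold over control (log2 fold change 3.77, SE 1.003, q = 0.0318). Without control replicate 3 these became 56.7-fold and 34.0-fold. The call at 3 hours was kept in all 19 alternative analyses (q from 1.31e-06 to 0.0264). At 3 days it was lost without control replicate 1 (q = 0.0954), control replicate 2 (q = 0.106), TL3d replicate 1 (q = 0.0820), or TL3d replicate 2 (q = 0.0765), with a lowest q of 0.000220. At 14 days the mean of 27.0 ± 26.0 CPM (SD, n = 3) gave a log2 fold change of 1.19 (SE 0.91, q = 0.674). It was 0.14 without TL14d replicate 2 and 2.51 without control replicate 3, and it passed the threshold only when control replicate 3 and TL14d replicate 1 were left out together (3.04, q = 0.0309, highest q 0.999).

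**Figure D3:**
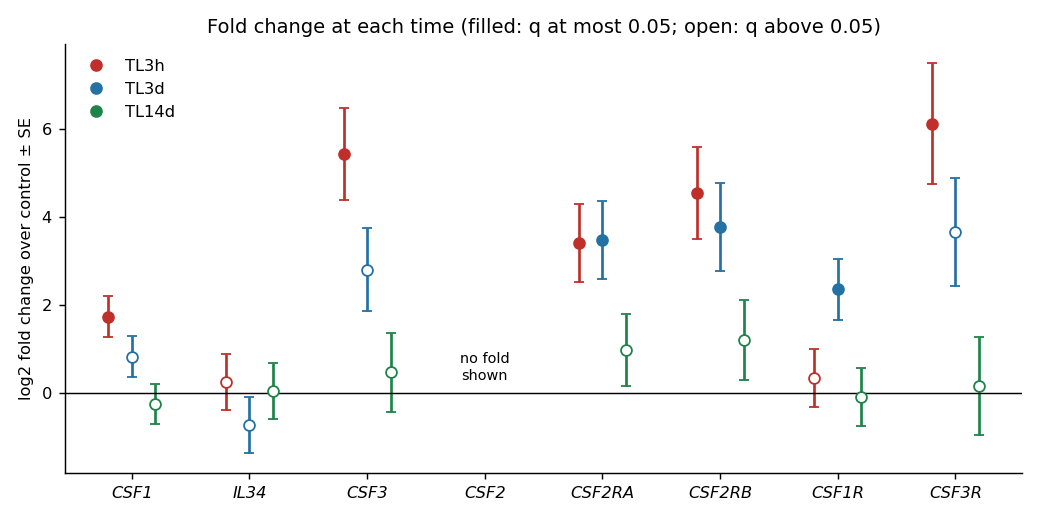
Log2 fold changes of TL3h, TL3d, and TL14d against control, with bars for the standard error and filled points for q under 0.05, for 5 of the 6 genes (no fold is shown for CSF2, which has bounds alone) and for CSF1R and CSF3R. CSF3R (6.12) and CSF3 (5.43) were highest at 3 hours, CSF1R passed the threshold at 3 days alone (2.35), and no gene passed it at 14 days.

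The receptors of the other ligands, CSF1R and CSF3R, had different time courses. CSF3R, the receptor of CSF3, had 1.09, 2.05, and 18.9 CPM in control, 701, 607, and 228 CPM in TL3h, 156, 82.3, and 39.6 CPM in TL3d, and 1.01, 6.63, and 16.8 CPM in TL14d. CSF1R, the receptor of CSF1 and IL34, had 21.5, 52.6, and 173 CPM in control, 102, 134, and 76.6 CPM in TL3h, 274, 491, and 498 CPM in TL3d, and 32.9, 102, and 96.1 CPM in TL14d. CSF3R was highest in TL3h and CSF1R in TL3d, in each case without overlap with the libraries of any other group. CSF3R rose 69.7-fold at 3 hours (log2 fold change 6.12, SE 1.37, q = 0.00484, range over the alternatives 3.39e-08 to 0.0214), or 314-fold without control replicate 3, and at 3 days its log2 fold change was 3.66 (SE 1.22, q = 0.0633). The latter was 3.05 without TL3d replicate 1 and passed with DESeq2 (q = 0.00312), without control replicate 3 (log2 fold change 5.87, q = 0.0245), or without TL14d replicate 1 (q = 0.0377). It also passed without control replicate 3 and TL14d replicate 1 together (q = 0.00443), and its highest q was 0.166. CSF1R did not pass the threshold at 3 hours (log2 fold change 0.34, SE 0.66, q = 0.713), where the sign was negative with library size only (-0.12). The value was 1.44 without control replicate 3, and CSF1R passed when control replicate 3 and TL14d replicate 1 were left out together (q = 0.0233). It rose 5.11-fold at 3 days (log2 fold change 2.35, SE 0.70, q = 0.0440), a call that was lost in 10 of 19 alternative analyses, with q from 0.00307 to 0.134, among them each fit without control replicate 1 or 2, any TL3h or TL3d library, or TL14d replicate 3. Without control replicate 3 the rise of CSF1R at 3 days was 11.3-fold. At 14 days neither differed from control past the threshold, with log2 fold changes of -0.10 for CSF1R (q = 0.970) and 0.15 for CSF3R (q = 0.974). Without control replicate 3 these were 1.05 and 2.36, and without TL14d replicate 3 the CSF3R value was -0.93.

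Neighbouring times were then compared directly. From 3 hours to 3 days, 37.3% of all genes tested were called and 19.0% were called lower, and CSF3 was the only one of the 6 genes to change. It fell by 2.63 on the log2 scale (SE 0.92, q = 0.0457), a 6.19-fold drop. This call was lost in 8 of 19 alternative analyses (highest q 0.124), namely each fit that left out TL3h replicate 1 or 3 or any TL3d library, library size only (q = 0.0753), no filter (q = 0.0524), and the replicate block (q = 0.0746). The other differences were -0.91 for CSF1 (SE 0.46, q = 0.146), -0.97 for IL34 (SE 0.65, q = 0.261), 0.07 for CSF2RA (SE 0.80, q = 0.952), and -0.77 for CSF2RB (SE 0.90, q = 0.527). The sign for CSF2RA turned to -0.15 without TL3h replicate 3. IL34 passed the threshold when TL3d replicate 3 was left out (log2 difference -1.99, q = 0.0297, highest q 0.526). CSF2 at 3 days was 5.13 times the TL3h floor (q = 0.106), or 3.30 times without TL3d replicate 3. Its q ranged from 0.0137 to 0.190 over the alternatives and was under 0.05 without TL14d replicate 1 (q = 0.0326) or replicate 2 (q = 0.0384). Since CSF2 entered the test through libraries where it was high and was at 0 in TL3h, these q are no support for a change. CSF1R differed in the opposite direction to CSF3, with a rise from 3 hours to 3 days (log2 fold change 2.02, SE 0.69, q = 0.0419), but the call was lost when control replicate 2, TL14d replicate 3, or any library of TL3h or TL3d was left out (highest q 0.118). CSF3R had -2.47 (SE 1.16, q = 0.118), or -3.07 without TL3d replicate 1. It passed with DESeq2 (q = 0.0442) and with only the groups compared (q = 0.0238). It also passed without control replicate 3 and TL14d replicate 1 together (q = 0.0155), and its highest q was 0.251.

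From 3 days to 14 days, 2.24% of all genes were called and none of the 6. The log2 differences were -1.09 for CSF1 (SE 0.46, q = 0.199), -2.34 for CSF3 (SE 0.92, q = 0.174), -2.51 for CSF2RA (SE 0.85, q = 0.126), and -2.58 for CSF2RB (SE 0.95, q = 0.153). Without TL14d replicate 2 the differences were -3.73 for CSF3, -3.79 for CSF2RA, and -3.63 for CSF2RB. CSF2RA passed the threshold without TL14d replicate 2 (q = 0.0487) and with DESeq2 (q = 0.0191), with a highest q of 0.274 over the alternatives. CSF2RB passed it with DESeq2 alone (q = 0.0301, highest q 0.328). IL34 had 0.77 (q = 0.511), or 1.79 without TL3d replicate 3, and CSF1R and CSF3R had -2.45 (q = 0.0896) and -3.51 (q = 0.134), respectively. CSF1R passed without control replicate 3 (q = 0.0378) and with DESeq2 (q = 0.00459, highest q 0.222). CSF3R passed with DESeq2 alone (q = 0.0103, highest q 0.330).

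The spread within control and TL14d was wide for CSF3 and both receptor chains. In TL14d it was narrow for CSF1 and IL34, with ratios of the highest to the lowest library of 1.40 and 1.496. Control replicate 3 was the highest control library for 5 of the 6 genes, all but CSF2, and control replicate 1 was the lowest for CSF1, IL34, CSF2RA, and CSF2RB. In TL14d, replicate 2 was the highest library for 5 genes, all but IL34. The same ratio was 8.0 in control and 15.8 in TL14d for CSF2RB, but 1.33 in TL3d. For CSF2RA the ratios were 6.46, 12.3, and 1.13 in the same order. Both leukocyte marker sums ordered the control and TL14d libraries as CSF2RA and CSF2RB did, and their part in these levels was not tested. The monocyte and macrophage sum was 89.8, 183, and 672 CPM in control and 123, 392.5, and 248 CPM in TL14d, and the neutrophil sum was 3.30, 7.85, and 86.3 CPM in control and 2.76, 110, and 93.0 CPM in TL14d. The sum of dendritic and Langerhans cell markers was 94.9 CPM in TL14d replicate 2, the library with 627 CSF2 counts, against 2.86 and 17.8 CPM in the other TL14d libraries. Its part in the CSF2 level was not tested.

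Levels per transcript length allow the genes to be compared with each other. The deposited FPKM values (fragments divided by transcript length and library total) gave CSF1 13.9 ± 9.27, IL34 3.78 ± 2.17, CSF3 0.858 ± 0.921, and CSF2 0.0539 ± 0.0934 FPKM in control (SD, n = 3). In TL3h the FPKM values were 33.8 ± 10.3 for CSF1, 27.7 ± 14.0 for CSF3, 3.23 ± 0.910 for IL34, and 0 for CSF2 (SD, n = 3). The CSF3 mean thus came within the SD of CSF1 at 3 hours, whereas it was far below CSF1 in control. By library, TL3h had 35.1, 11.6, and 36.4 FPKM of CSF3 beside 24.3, 44.7, and 32.4 FPKM of CSF1. At 3 days CSF1 had 25.3 ± 8.42 FPKM, CSF3 6.26 ± 2.77, IL34 2.28 ± 2.01, and CSF2 1.88 ± 1.11 (SD, n = 3). Among receptors, CSF3R had the highest FPKM in TL3h (114 ± 54.9, SD, n = 3) and CSF1R in TL3d (139 ± 41.1, SD, n = 3), whereas in control the FPKM values were 26.4 ± 24.8 for CSF1R, 3.18 ± 2.72 for CSF2RA, 2.84 ± 2.89 for CSF2RB, and 2.21 ± 2.97 for CSF3R (SD, n = 3).

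**Figure D4:**
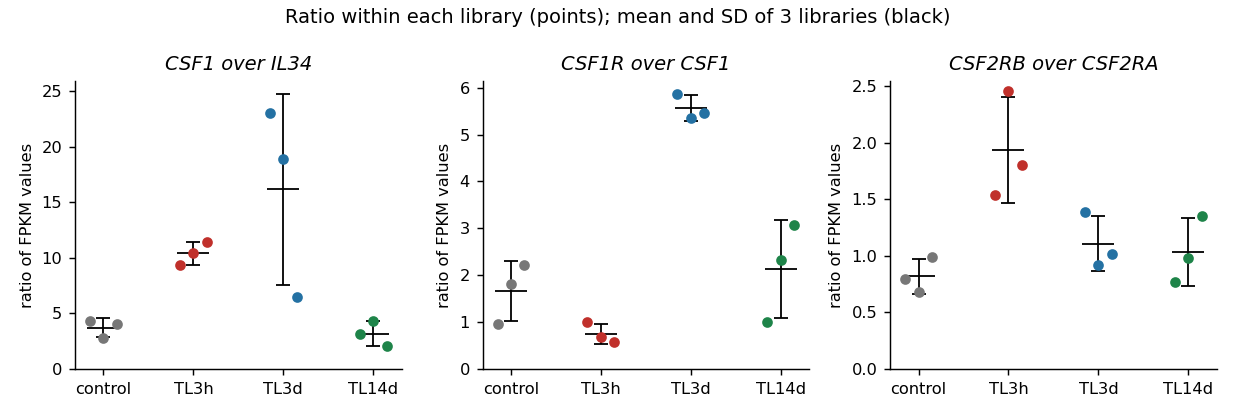
Ratios of FPKM values within each library for CSF1 over IL34, CSF1R over CSF1, and CSF2RB over CSF2RA, with points for the 3 libraries of each group and bars for the mean ± SD. CSF1R over CSF1 was 5.35 to 5.88 in TL3d and 0.573 to 3.06 in all other libraries, and CSF1 over IL34 was higher in each TL3h and TL3d library than in any control library.

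Ratios within a library showed how the genes shifted against each other. CSF1 over IL34 was 4.34, 2.75, and 4.06 in control, 9.38, 10.5, and 11.4 in TL3h, 23.1, 18.9, and 6.49 in TL3d, and 3.14, 4.33, and 2.08 in TL14d. CSF1 therefore exceeded IL34 per length in every library, and by more in each library of TL3h and TL3d than in any of control and TL14d. CSF1R over CSF1 was 0.956, 1.81, and 2.21 in control, 0.992, 0.691, and 0.573 in TL3h, 5.88, 5.35, and 5.46 in TL3d, and 1.004, 2.33, and 3.06 in TL14d. The 3 TL3d values lay close together and above the others. CSF2RB over CSF2RA was 0.797, 0.681, and 0.987 in control, 1.54, 2.46, and 1.81 in TL3h, 1.39, 0.923, and 1.02 in TL3d, and 0.765, 0.984, and 1.36 in TL14d, with each TL3h library above all others. CSF3R over CSF3 was 1.02 to 2.93 in control, 1.44 to 11.5 in TL3h, 3.61 to 5.92 in TL3d, and 0.653 to 11.7 in TL14d. In this ratio TL3h and TL14d overlapped control. All these ratios are given as a description and were not tested.

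**Figure D5:**
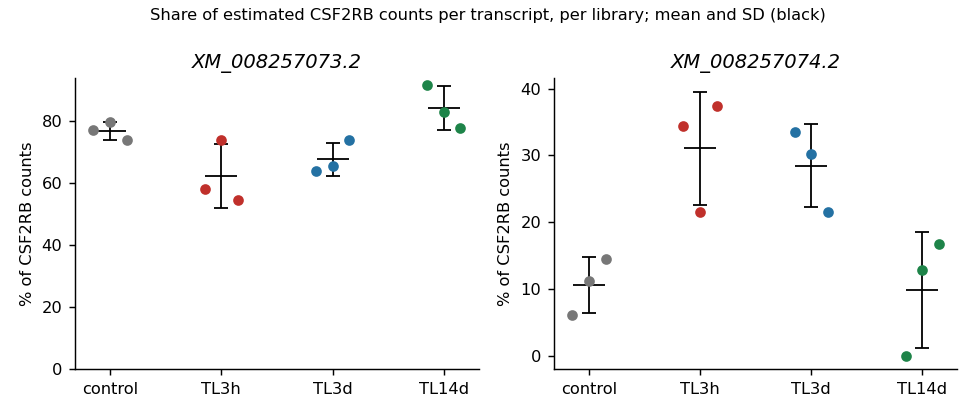
Share of the CSF2RB transcript counts assigned to the 2 most abundant of its 4 annotated transcripts, in percent, with points for libraries and bars for the mean ± SD of 3 libraries in each group. The share of XM_008257074.2 was 21.5% to 37.4% in TL3h and TL3d and at most 16.7% in control and TL14d.

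CSF2RA, CSF2RB, and IL34 each had 4 annotated transcripts, whereas CSF1, CSF2, and CSF3 had 1 each. The shares are estimates of the submitters' software from reads that the transcripts partly share. The transcript XM_008257073.2 was the main form of CSF2RB, with 76.7 ± 2.92% of its counts in control, 62.2 ± 10.3% in TL3h, 67.6 ± 5.40% in TL3d, and 84.1 ± 7.03% in TL14d (SD, n = 3). The share of XM_008257074.2 was 6.07%, 11.2%, and 14.5% in control, 34.3%, 21.5%, and 37.4% in TL3h, 33.5%, 30.3%, and 21.5% in TL3d, and 0.00014%, 12.8%, and 16.7% in TL14d. Each TL3h and TL3d library lay above each control and TL14d library. CSF2RA was mainly 1 form in all groups, since XM_008251322.2 took 79.5% to 90.7% of its counts. For IL34, XM_002711677.3 took 54.3% to 77.0%. The differences in these shares were not tested.

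Partners and downstream genes of the family changed in number as follows. Of 6 tested partner ligands and receptors, 2 rose at 3 hours (IL3RA and CSF3R) and 3 at 3 days (IL3RA, IL5RA, and CSF1R), and the median log2 fold change of the list was 0.87 and 3.00. These are 33.3% and 50% of the list, against 23.2% and 10.6% of all genes called higher. Both counts include IL3RA, which entered the test through operated libraries, and that at 3 days includes IL5RA, under 1 CPM on average. The shares are therefore no support for a change of the list. IL3RA, the IL-3 binding chain that pairs with CSF2RB, had 0.0585 ± 0.0806 CPM in control, 6.89 ± 5.26 in TL3h, and 2.37 ± 1.25 in TL3d (SD, n = 3). Its control counts were 0, 1, and 6, and it entered the test through the operated libraries, where it was high. Its q values are therefore no support for a change, and its folds are given as a description. Its log2 fold change was 6.80 (SE 1.45, q = 0.00374) at 3 hours, or 5.93 without TL3h replicate 2, and 5.27 (SE 1.39, q = 0.0307) at 3 days. Without control replicate 3 the other control libraries lay under the floor, and no fold is given. IL5RA, named here after its values were seen, stayed under 1 CPM on average. Of 17 tested signalling genes, 7 rose and 1 fell at 3 hours, with a list median of 0.50, and 6 rose at 3 days, with a median of 0.72. The share called was 47.1% at 3 hours, close to the 45.4% of all genes, and 35.3% at 3 days against 17.6%. The phosphoinositide 3-kinase subunit PIK3R5 (log2 fold change 3.51, SE 0.75, q = 0.00368) and the adaptor TYROBP (2.82, SE 0.72, q = 0.00951) were among those that rose at 3 hours, and the Janus kinase TYK2 fell (-0.99, SE 0.21, q = 0.00343). At 3 days TYROBP (3.04), PIK3R5 (2.53), and the kinase subunit PIK3CD (1.02) rose, with q = 0.0230, 0.0387, and 0.0244.

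Of 12 feedback and target genes of cytokine receptors tested, 10 rose at 3 hours, with a median log2 fold change of 2.99, and 6 at 3 days, with a median of 0.94. These are 83.3% and 50% of the list, against 23.2% and 10.6% of all genes called higher. OSM, a cytokine gene under STAT5 control, had 0.264 ± 0.230 CPM in control and 42.4 ± 10.8 CPM in TL3h (SD, n = 3), with a log2 fold change of 7.31 (SE 1.56, q = 0.00377). Like IL3RA, it entered the test largely through operated libraries, where it was high, so its q values are no support for a change. The counts of 10 and 6 genes above include OSM. SOCS3, an inhibitor of receptor signalling, went from 10.1 ± 11.2 to 521 ± 175 CPM (SD, n = 3) at 3 hours, with a log2 fold change of 5.68 (SE 0.92, q = 0.000832). The survival gene BCL2A1 went from 10.3 ± 4.49 to 247 ± 95.2 CPM (SD, n = 3), with a log2 fold change of 4.59 (SE 0.62, q = 0.000310). At 3 days the log2 fold changes were 5.61 for OSM, 3.22 for SOCS3, and 2.87 for BCL2A1, with q = 0.0300, 0.0280, and 0.0155. These genes answer to many cytokines, so their change is not particular to this family.

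Of 10 myeloid transcription factors, 8 rose at 3 hours, with a median of 1.83, and 3 at 3 days, with a median of 1.29. The share called higher was 80.0% and 30.0%, against 23.2% and 10.6% of all genes. At 3 hours the leading ones by the naming rule were EGR2 (log2 fold change 4.96, SE 1.03, q = 0.00323), the myeloid master regulator SPI1 (3.51, SE 0.64, q = 0.00159), and CEBPB (2.63, SE 0.39, q = 0.000477). At 3 days SPI1 had 3.08 (SE 0.63, q = 0.0159) and IRF8 had 1.68 (SE 0.49, q = 0.0415). Of 8 factors that bind AU-rich or stem-loop elements of cytokine mRNAs, 4 rose at 3 hours (median 0.57) and 0 passed at 3 days (median 0.14). The share called higher at 3 hours was 50%, against 23.2% of all genes. ZC3H12A, a ribonuclease of cytokine mRNAs, had 2.07 (SE 0.31, q = 0.000516), and ZFP36, which binds AU-rich elements, had 2.16 (SE 0.61, q = 0.0159). The stabilising factor ELAVL1 had 0.69 (SE 0.13, q = 0.00181), which did not pass with library size only (q = 0.252, the highest of its alternatives). The call for ZFP36 was lost without control replicate 3 or TL3h replicate 1 (highest q 0.0569). Without control replicate 3 the log2 fold changes at 3 hours were 8.21 for OSM, 7.10 for SOCS3, 4.30 for PIK3R5, and 3.67 for TYROBP, and at 3 days 6.55, 4.68, 3.36, and 3.93. None of the genes of these 5 lists passed the threshold at 14 days. Each call at 3 days named in the last 3 paragraphs for a gene with at least 1 CPM was lost in at least 1 fit without a single library, with highest q between 0.0607 for BCL2A1 and 0.134 for CSF1R.

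The genes whose pattern was most like each of the 6 were found by Pearson's r of log2 CPM over the 12 libraries, which share the 4 groups, so that r describes these libraries only. CSF2RA and CSF2RB had r = 0.986 with each other. Closest to CSF2RA were CD53 (0.996), IGSF6 (0.996), SIGLEC5 (0.994), NCKAP1L (0.991), and CD14 (0.991), which are known genes of leukocytes. Closest to CSF2RB were NFAM1 (0.995), CD53 (0.994), LOC100348711 (0.993), LOC100337909 (0.991), and IGSF6 (0.990). For CSF1 the list was KCTD12 (0.984), TMEM236 (0.962), IL10 (0.962), SAMHD1 (0.962), and EHD4 (0.953). CSF3 was closest to SNRPA1 (0.987), BTF3L4 (0.979), the metalloproteinase MMP10 (0.979), USP16 (0.972), and RNF14 (0.972). IL34 was closest to SSPN (0.979), STX2 (0.978), the fibrillar collagen gene COL5A1 (0.975), MAOB (0.965), and LOC100344043 (0.963), and its r with the other 5 genes of the family was between -0.14 and 0.33. The CSF2 pattern, which rests largely on TL14d replicate 2, was closest to TNFSF11 (0.954), WNT5A (0.953), SLC38A3 (0.951), PAX7 (0.947), and TMEM132A (0.940).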

How the data were processed

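RNA from 12 conjunctiva libraries was sequenced as 150 bp paired-end reads after poly(A) selection with a stranded kit. The authors mapped the reads to OryCun2.0 with STAR (2.6.0c in the submitters' processing notes) and deposited estimated counts per gene and transcript, not divided by library size, of which 23.4% were fractions in the gene table. How shared reads were divided, and whether counting used strand, is not given in the sources used here. The authors also deposited FPKM values, divided by transcript length and depth, which were used only for levels between genes.

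Counts were rounded to whole numbers. Of 20566 genes, 14835 passed filterByExpr at a minimum count of 10 and a total of at least 15, including all 6 genes described (CSF2 through TL3d and TL14d libraries alone). All 12 libraries entered 1 quasi-likelihood fit in edgeR 4.0.16 (R 4.3.3, limma 3.58.1) with TMM scaling and no covariate, tested on simulated data beforehand. The Benjamini-Hochberg adjustment ran over all genes tested, with a threshold of 0.05, and fold changes used a prior count of 0.125. The operated libraries of a time point came from separate eyes, and only right eyes were operated on, so each stands for 1 rabbit. Which rabbits gave the control eyes is not stated. Folds against a group at 3 counts or fewer per library were taken against its mean floor. They bound the level of that group only and leave out the spread of the other group. Floors cover counting error only, and reads carried no molecular identifiers. The SD and SE values also include the variation between libraries.

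The members and gene lists were chosen with earlier results of these data known. Named were all 6 genes, CSF1R, CSF3R, per list and comparison with control up to 3 higher and 2 lower genes of at least 1 CPM with the largest change, and the 5 genes most correlated with each member (log2 CPM, prior count 2). IL3 and STAT5A were not analysed here, and some genes that the rule names are not reported here. Alternatives were RLE scaling, library size only, DESeq2 1.42.0, no filter, only the groups compared, a replicate block, leaving out each library, and, chosen after seeing the data, leaving out control replicate 3 and TL14d replicate 1 together. Other gene coordinates and sequences were not used here.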

Additional observations from a re-analysis of the deposited data

Results flagged for a closer look

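The change of CSF3 between the time points 3 days and 3 hours, both measured against the same control group, differed by the direct test of TL3d against TL3h in edgeR (log2 difference -2.63, q = 0.0457, higher in each of the 3 TL3h libraries than in each TL3d library). The same test for CSF1R, the receptor of CSF1 and IL34, gave a difference in the opposite direction (2.02, q = 0.0419, higher in each of the 3 TL3d libraries), a call lost in 8 of 19 alternative analyses (highest q 0.118). The CSF3 call was likewise lost in 8 of 19 (highest q 0.124).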

How the results depend on the processing

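Of 550 values for the 6 genes under the alternatives, 502 kept their direction and side of the threshold. Many of these fits left out a library of neither group compared, or concerned a value far from the threshold. The share therefore says little about single calls, and those of CSF2RA and CSF2RB at 3 days were each lost in 4 of 19 alternatives. The number of the 6 genes past it, with 1 library left out, was 3 to 4 at 3 hours, 0 to 4 at 3 days, and 0 to 1 at 14 days against control, 0 to 2 for TL3d against TL3h, and 0 to 1 for TL14d against TL3d. The numbers of all genes called were 5280 to 7271, 359 to 3778, 0 to 716, 3954 to 6231, and 0 to 584 in that order. The 3-day count was lowest without TL3d replicate 2, and the 14-day count highest without TL14d replicate 1. With DESeq2, 4471 genes were called at 3 days, 367 genes and 1 of the 6 at 14 days (CSF2, which rests on TL14d replicate 2), 2 of the 6 for TL3d against TL3h, and 1850 genes and 2 of the 6 for TL14d against TL3d. Only the groups compared gave 15 genes for TL14d against TL3d and 2 of the 6 for TL3d against TL3h, where library size only and no filter gave 0. With library size only, TL3d against TL3h had 5078 genes higher and 1233 lower. Without control replicate 3 and TL14d replicate 1, 4 of the 6 passed at 3 days, 1 of the 6 and 999 genes at 14 days, and 2 of the 6 for TL3d against TL3h. Over the alternatives other than leaving out 1 library, 2201 to 4471 genes were called at 3 days and 5244 to 6626 for TL3d against TL3h. The counts of the 6 genes thus stand beside a background that moved as well. The causes were not tested.

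Whether the replicate numbers mark paired samples is not given. The correlations of same-numbered deviations were -0.147 to 0.481 with a median of 0.034 (8 of 18 over 0.1, against 8 of 36 for other numbers), and 9 of 12 libraries correlated best with their own number. The samples were treated as unpaired because no match was given and not every pair exceeded 0.1. These correlations cannot exclude a match of some control eyes to operated eyes. With the replicate block 0 of the 6 passed for TL3d against TL3h.

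Log2 fold changes of these results reversed in sign, each given with its range over fits without 1 library. IL34 at 3 hours ranged from -0.12 (without control replicate 1, with -0.08 without TL3h replicate 2) to 0.75, and was -0.24 with library size only. IL34 at 14 days ranged from -0.32 to 0.59 and was negative without control replicate 1, control replicate 2 (-0.04), or TL14d replicate 3 (-0.18). CSF1 at 14 days ranged from -0.57 to 0.47 (without control replicate 3) and was 0.54 without control replicate 3 and TL14d replicate 1. Without TL14d replicate 2, CSF3 at 14 days was -0.93 (highest 1.91), CSF2RA at 14 days -0.31 (highest 1.97), and the fitted CSF2 value for TL14d against TL3d -0.67 (highest 3.93). CSF2RA for TL3d against TL3h ranged from -0.15 (without TL3h replicate 3) to 0.31. CSF1R at 3 hours ranged from -0.12 (without control replicate 1) to 1.44 and was -0.12 with library size only. CSF1R at 14 days ranged from -0.55 to 1.05 (without control replicate 3), with 0.27 without TL14d replicate 1, 1.41 without both, and 0.067 with the replicate block. CSF3R at 14 days ranged from -0.93 (without TL14d replicate 3) to 2.36, with -0.36 and -0.30 without control replicate 1 or 2. CSF2 at 14 days could not be fitted with only the groups compared, since it failed the filter.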
